A study of Mus musculus with 29 samples.

Results

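Endothelial identity genes are the genes by which the cells lining blood vessels are recognised and through which they keep their character. The 10 described here are Pecam1, Cdh5, Kdr, Tek, Tie1, Cldn5, Emcn, Egfl7, Sox17 and Erg. Methylation was deposited as the percent of methylated CpG cytosines (%DNAm) in windows along genes, and a window belonged to the set when the deposited table named any of these genes for it. This gave 159 of 260686 windows, and all 159 were tested. Erg, the longest gene, had 56 windows, Pecam1 25, Tek 20, Emcn 14, Kdr 13, Cdh5 9, Sox17 and Tie1 7 each, Egfl7 6 and Cldn5 2. The windows were 476 to 10871 bp long (median 4285 bp), and 149 of them held exactly 50 CpG dinucleotides. Only 7 of the windows also overlapped another annotated gene.

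The libraries were made by whole-genome enzymatic methyl-sequencing, which converts unmethylated cytosines with enzymes, from lung homogenate of 29 female BALB/c mice aged 13 weeks. Their dams received either saline (Sham) or fine particulate matter collected at a Hong Kong roadside (PM), by the nose, from before mating until weaning. Offspring were then sensitised and challenged with ovalbumin (OVA), an egg protein that brings on allergic airways disease (AAD) in sensitised mice, or were given saline in its place. There were 7 libraries each of Sham, Sham-OVA and PM and 8 of PM-OVA, and no animal carried an engineered allele. A portion of the right lower lobe was homogenised after lung function testing, so each value is an average over all the cell types in that piece. Fewer endothelial cells in the piece cannot be told apart from a change of methylation within them. Litters are not given in the labels, so p-values measure the spread between these animals, some of which may share a dam.

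Between 258952 and 260135 windows had a value per library, and 158 or 159 of the member windows did. Mean %DNAm over all windows lay between 67.8 and 70.2%. Sham replicate 1 stood apart, with values in 1224 Y chromosome windows against 29 to 46 in the other 28 libraries, although the series describes females. All members are autosomal. Without that library the OVA comparison in Sham called 5 member windows as differentially methylated and 82 past the adjusted p, against 5 and 85 with it. The table holds no read counts, so the depth behind a single percentage is unknown here and the precision of a comparison rests on the number of libraries.

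Vascular endothelium forms the barrier between blood and tissue and, in the lung, the capillary bed across which gas is exchanged and leucocytes are recruited. Its identity is held by transcription factors of the ETS and SOX families, which keep on receptors for vascular growth factors and angiopoietins and the proteins that seal cell junctions. Methylation of CpG-dense gene starts is usually low whatever the activity of the gene, whereas CpG-poor starts and enhancers of a cell-type gene tend to be less methylated in the cells that use it.

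The starts of these genes are of both kinds, which is why 4 of them are printed here. RefSeq promoters (GRCm38.p6, 250 bases before to 50 bases after the start) were found for 7 of the 10 genes, 11 promoters in all. Pecam1, Cdh5 and Sox17 had no entry. The 150 bases just before the start are shown 5′ to 3′ on the strand of the gene, with each CG in capitals, for Kdr (chr5:75978456-75978605, minus strand), Cldn5 (chr16:18776697-18776846, plus strand), Tek (chr4:94739139-94739288, plus strand) and Emcn (chr3:137340928-137341077, plus strand).
Kdr: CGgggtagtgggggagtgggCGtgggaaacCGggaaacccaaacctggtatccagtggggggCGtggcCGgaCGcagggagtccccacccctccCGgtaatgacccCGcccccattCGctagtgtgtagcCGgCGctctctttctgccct
Cldn5: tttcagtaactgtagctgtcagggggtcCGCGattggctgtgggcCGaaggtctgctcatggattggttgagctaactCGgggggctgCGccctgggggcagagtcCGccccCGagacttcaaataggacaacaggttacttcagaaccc
Tek: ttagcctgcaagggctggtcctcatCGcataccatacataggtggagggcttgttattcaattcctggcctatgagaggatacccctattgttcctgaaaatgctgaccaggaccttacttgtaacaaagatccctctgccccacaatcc
Emcn: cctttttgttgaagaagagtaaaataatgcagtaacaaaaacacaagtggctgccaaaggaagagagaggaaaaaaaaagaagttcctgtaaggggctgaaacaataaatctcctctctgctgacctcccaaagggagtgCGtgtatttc
Kdr held 11 CG in this stretch and Cldn5 7, whereas Tek and Emcn held 1 each. Over the whole promoter the counts were 19, 12, 3 and 2, beside a median of 7 over 32851 RefSeq promoters. Searched on both strands, the ETS core AGGAA occurred in 8 of the 11 promoters (66.7% of all promoters), the longer ETS motif CCGGAAG in 0 of 11 (8.86%), the SOX core ACAAT in 3 (31.0%) and the KLF and SP motif CACCC in 7 (57.5%). Both ETS motifs contain GGAA and can overlap. These are letter matches and no measure of binding.

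To ask how AAD altered methylation at these genes, Sham-OVA was compared with Sham. OVA challenge was accompanied by higher methylation at windows of Egfl7, Cdh5, Pecam1, Kdr, Tek, Tie1, Cldn5 and Sox17 and by lower methylation at more windows of Emcn and Erg than rose. A window was called a differentially methylated region (DMR) when the adjusted p was under 0.05 and the group means differed by at least 10 percentage points. By this rule 5 of the 159 member windows (3.14%) were DMRs against 0.775% of all 259167 windows tested, and 4 were higher and 1 lower after OVA. With the adjusted p alone, 53 member windows (33.3%) were higher against 13.3% of all windows, and 32 (20.1%) were lower against 22.3%. The remaining 74 did not pass. The median difference over the members was 0.51 percentage points, beside -0.41 over all windows.

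In PM offspring, PM-OVA compared with PM gave 3 member DMRs (1.89%) against a background of 0.584%, of which 2 were higher and 1 lower. There were 5, 4 higher and 1 lower, with the libraries centred, and 5 without PM replicate 1 or without PM replicate 4. Here 46 member windows (28.9%) were higher, against 9.26% of all windows, and 47 (29.6%) were lower, against 34.8%. The medians were -0.24 percentage points for the members and -1.03 for all windows, so the whole genome table sat lower in PM-OVA than in PM. When each library was centred on its median difference from the others, the split became 60 higher and 32 lower in PM and 60 higher and 30 lower in Sham. The centred medians were 0.74 percentage points for the members and -0.05 for all windows in PM, and 0.91 and -0.02 in Sham. Centring moved the share of higher calls over all windows from 21.02 to 50.33% in PM and from 37.35 to 50.72% in Sham, so the balance of higher and lower calls depends on the scaling.

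The 2 maternal arms share no library. Of the member windows, 39 (24.5%) were higher after OVA in both arms, beside 7.57% of all windows. Another 29 (18.2%) were lower in both, beside 19.7%, and 0 were called in opposite directions, beside 0.0177%. The 39 are 39 of 53 higher windows in Sham and 39 of 46 in PM. A further 17 passed in Sham but not PM and 25 in PM but not Sham, which does not by itself show that the arms differ. The plot of the 2 OVA differences against each other shows the windows spread along the line of equal change.

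**Figure D1:**
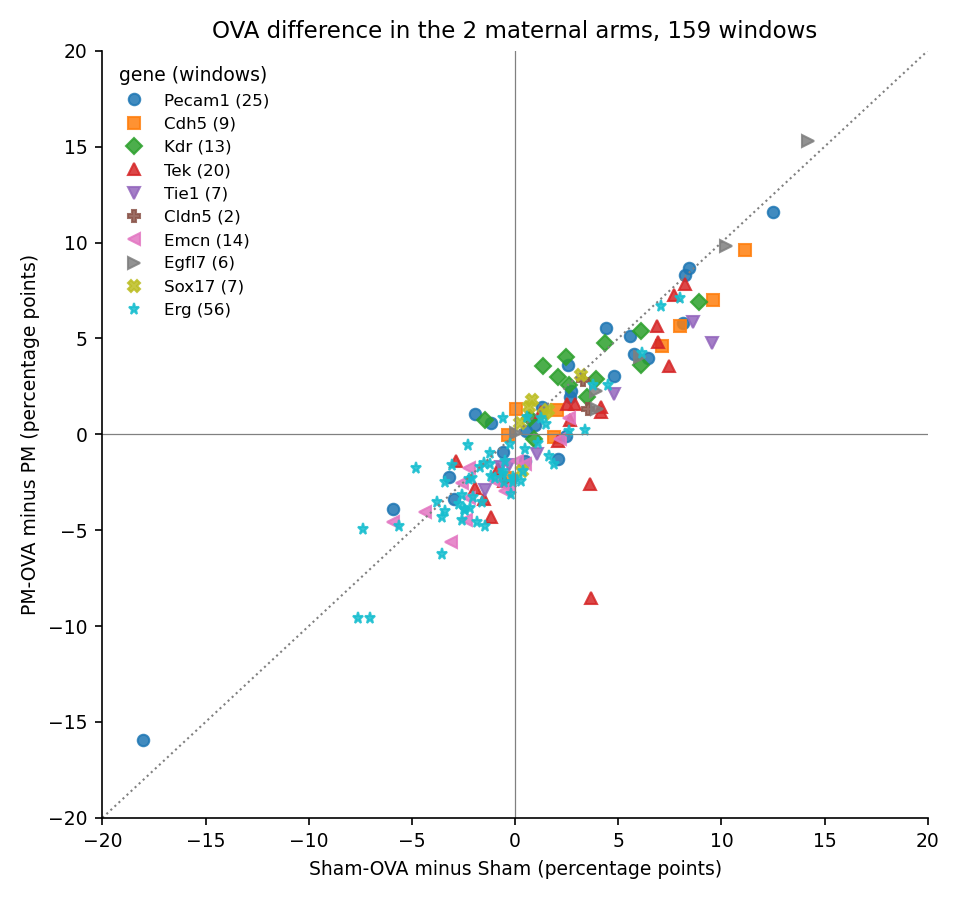
Each of the 159 member windows is a point, with the difference of group means Sham-OVA minus Sham on the x axis and PM-OVA minus PM on the y axis, both in percentage points of DNAm, and the symbol giving the gene. The dotted line marks equal differences. The lowest point is a Pecam1 window (-18.0, -15.9) and the highest an Egfl7 window (14.2, 15.3), and a Tek window with few values lies off the line (3.68, -8.55).

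The point farthest from the line is a Tek window (chr4:94813181-94818257) that had a value in only 4 of the Sham-OVA libraries and in 3 of each other group. Its adjusted p was 0.552 in Sham and 0.179 in PM. The other 16 libraries had no value there and did not enter its fit.

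The counts differed with the level of a window. Among the 95 member windows whose mean over the 29 libraries lay from 40 to 80%, 44 (46.3%) were higher in Sham-OVA, beside 14.7% of all windows in that range, and 12 (12.6%) were lower, beside 22.4%. For OVA in PM the same windows gave 34 higher (35.8%, background 10.1%) and 16 lower (16.8%, background 36%). Of the 48 windows at 80% and over, 1 (2.08%) was higher in Sham-OVA, beside 9.1% of all windows over 80%, and 17 (35.4%) were lower, beside 27.1%. In PM 2 were higher (4.17%, background 5.56%) and 28 lower (58.3%, background 41.5%). All 10 windows under 10% had a positive difference in both arms, beside 44.8% of all windows in that range. Of them 5 rose in Sham (50%, background 17.9%) and 8 in PM (80%, background 15.7%), and 0 fell (background 3.08 and 3.74%). They were CpG-dense windows of Sox17, Cldn5, Kdr, Erg and Egfl7.

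**Figure D2:**
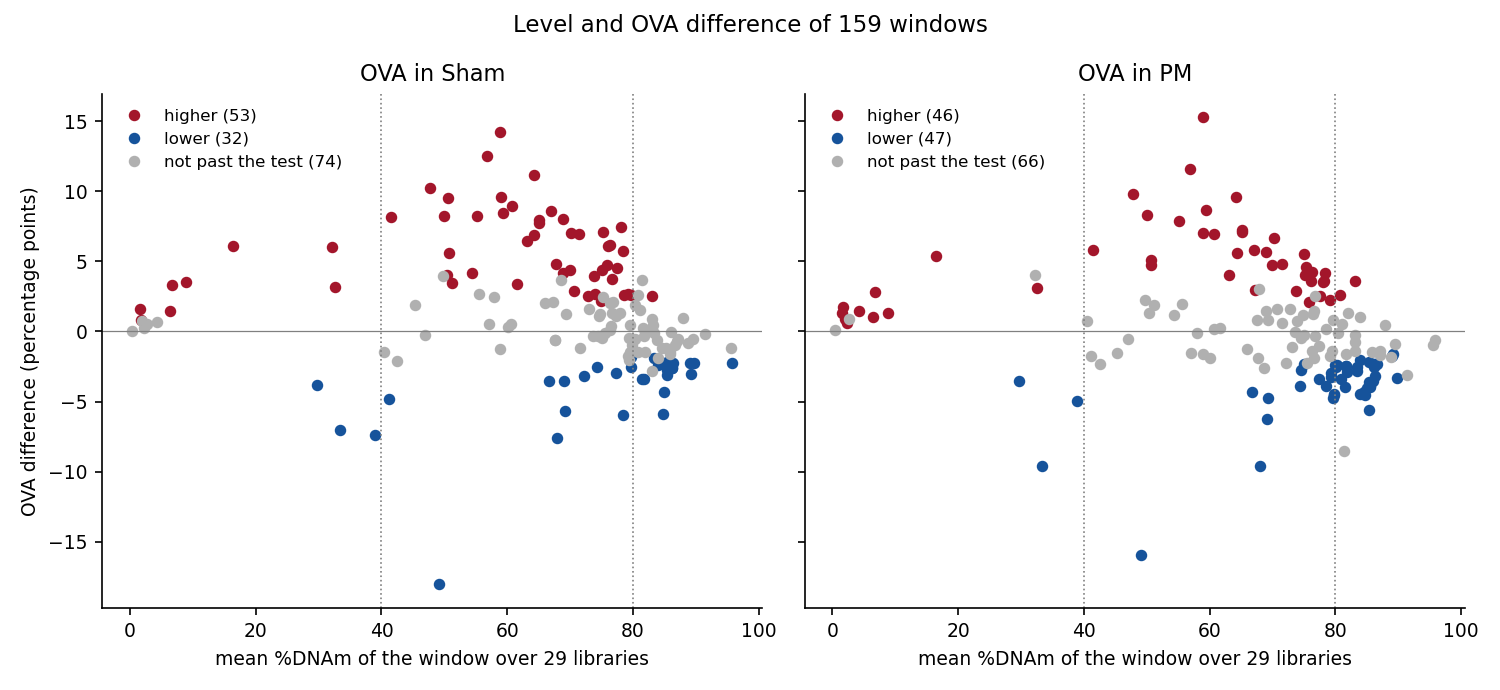
The x axis gives the mean %DNAm of each member window over the 29 libraries and the y axis its OVA difference in percentage points, for Sham on the left and PM on the right. Red windows were higher and blue windows lower past the adjusted p, and grey windows did not pass. Between the dotted lines at 40 and 80% most called windows are higher (44 against 12 in Sham), and right of 80% most are lower (17 against 1 in Sham).

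By position, 23 windows held at least 1 annotated transcript start of their own gene (GENCODE M21, GRCm38). Of these, 10 (43.5%) were higher in Sham-OVA, against 12.8% of all windows that hold a start of their gene, and 3 (13.0%) were lower, against 17.8%. In the PM arm 9 were higher (39.1%, background 9.3%) and 4 lower (17.4%, background 28%). Another 64 windows held exon but no start, and of these 24 were higher (37.5%, background 14.3%) and 8 lower (12.5%, background 20.8%) in Sham. In PM 24 were higher (37.5%, background 9.86%) and 16 lower (25%, background 32.6%). Of the 72 windows that were wholly intronic 19 were higher (26.4%, background 12.7%) and 21 lower (29.2%, background 26.3%) in Sham. In PM 13 were higher (18.1%, background 8.74%) and 27 lower (37.5%, background 40.7%). Each background is the share over all windows of the same position relative to their own gene. Most intronic windows belong to the long genes Erg, Tek, Emcn and Pecam1.

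Pecam1 encodes PECAM-1 (CD31), the immunoglobulin-family adhesion molecule of endothelial junctions that is also carried by platelets and many leucocytes. It had the largest fall of the set. The window chr11:106750342-106753694 ran from 53.8 to 61.4% (median 58.4%) over the Sham libraries and from 36.3 to 47.8% (median 38.9%) in Sham-OVA. The groups did not overlap. In PM it ran from 53.4 to 62.6% (median 59.1%) and in PM-OVA from 38.8 to 45.8% (median 41.2%), again without overlap. Means fell from 58.08 ± 2.70% to 40.04 ± 4.21% (SD, n = 7 and 7), a difference of -18.0 percentage points (-1.04 ± 0.10 SE on the log2 ratio of methylated to unmethylated, adjusted p = 1.8e-08), and PM-OVA differed from PM by -15.9 percentage points (adjusted p = 4.08e-08).

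The gene name of this window tells only part of what lies in it. It overlaps 287 bp of Pecam1, at the start of the longest transcript, Pecam1-201, and 2469 bp of Milr1, the neighbouring gene on the other strand. Milr1 encodes allergin-1, an inhibitory immunoglobulin-like receptor of mast cells and other myeloid cells. The window holds 7 of the 8 annotated Milr1 starts and 1 of the 8 Pecam1 starts. The next window, named Milr1 in the table (chr11:106753695-106759397), was also lower after OVA. It fell by 3.69 percentage points in Sham (adjusted p = 6.55e-05) and fell by 4.89 in PM (adjusted p = 3.29e-07). On its other side the Pecam1 window chr11:106743623-106750341 fell by 5.94 in Sham (adjusted p = 1.2e-05) and fell by 3.90 in PM (adjusted p = 0.00054). Without the window at the Milr1 start, a choice made after seeing the data, 4 DMRs in Sham and 2 in PM remain among the members, each higher after OVA.
The 150 bases before the RefSeq start of Milr1 (chr11:106751076-106751225, plus strand, CG in capitals) are shown because they lie inside the window with the largest difference of the set.
Milr1: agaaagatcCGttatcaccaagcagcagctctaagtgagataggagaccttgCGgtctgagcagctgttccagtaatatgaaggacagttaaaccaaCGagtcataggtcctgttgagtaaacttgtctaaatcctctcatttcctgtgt
It held 3 CG, and the whole promoter held 5, beside 3 for Tek, 2 for Emcn and a median of 7 over all RefSeq promoters.

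Within the body of Pecam1 windows were called in both directions. The shorter protein-coding transcripts of Pecam1 start well inside the gene, in the window chr11:106713713-106718877, which rose from 65.1 ± 2.3% to 69.9 ± 1.8% in Sham (n = 7 and 7, adjusted p = 0.00784). In PM the values there were 66.5 ± 4.1% and 69.5 ± 2.0% (n = 7 and 8, adjusted p = 0.0709). Just downstream, the intronic window chr11:106709556-106713712 was a DMR in both arms. Sham libraries ran from 44.6 to 56.2% (median 48.3%) and Sham-OVA libraries from 56.6 to 68.6% (median 61.6%), and PM from 45.6 to 56.6% (median 53.2%) against 57.3 to 69.4% (median 62.5%) in PM-OVA. Neither pair of groups overlapped. The rise was 12.5 percentage points in Sham (adjusted p = 8.03e-05) and 11.6 in PM (adjusted p = 8.01e-05). Of the 25 Pecam1 windows, 11 were higher (44%) and 4 lower (16%) in Sham, beside 13.3 and 22.3% of all windows, and 10 higher (40%) and 3 lower (12%) in PM, beside 9.26 and 34.8%. The lower windows inside the gene were the one next to the start window, given above, chr11:106739026-106743622, which fell by 3.19 in Sham and did not pass in PM, and chr11:106687662-106691008, which fell by 2.96 in Sham and fell by 3.36 in PM. The window beyond this DMR (chr11:106705138-106709555) rose by 8.45 and 8.70, and chr11:106674934-106679214, nearer the 3′ end, by 8.22 and 8.29, each without overlap of the groups.

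**Figure D3:**
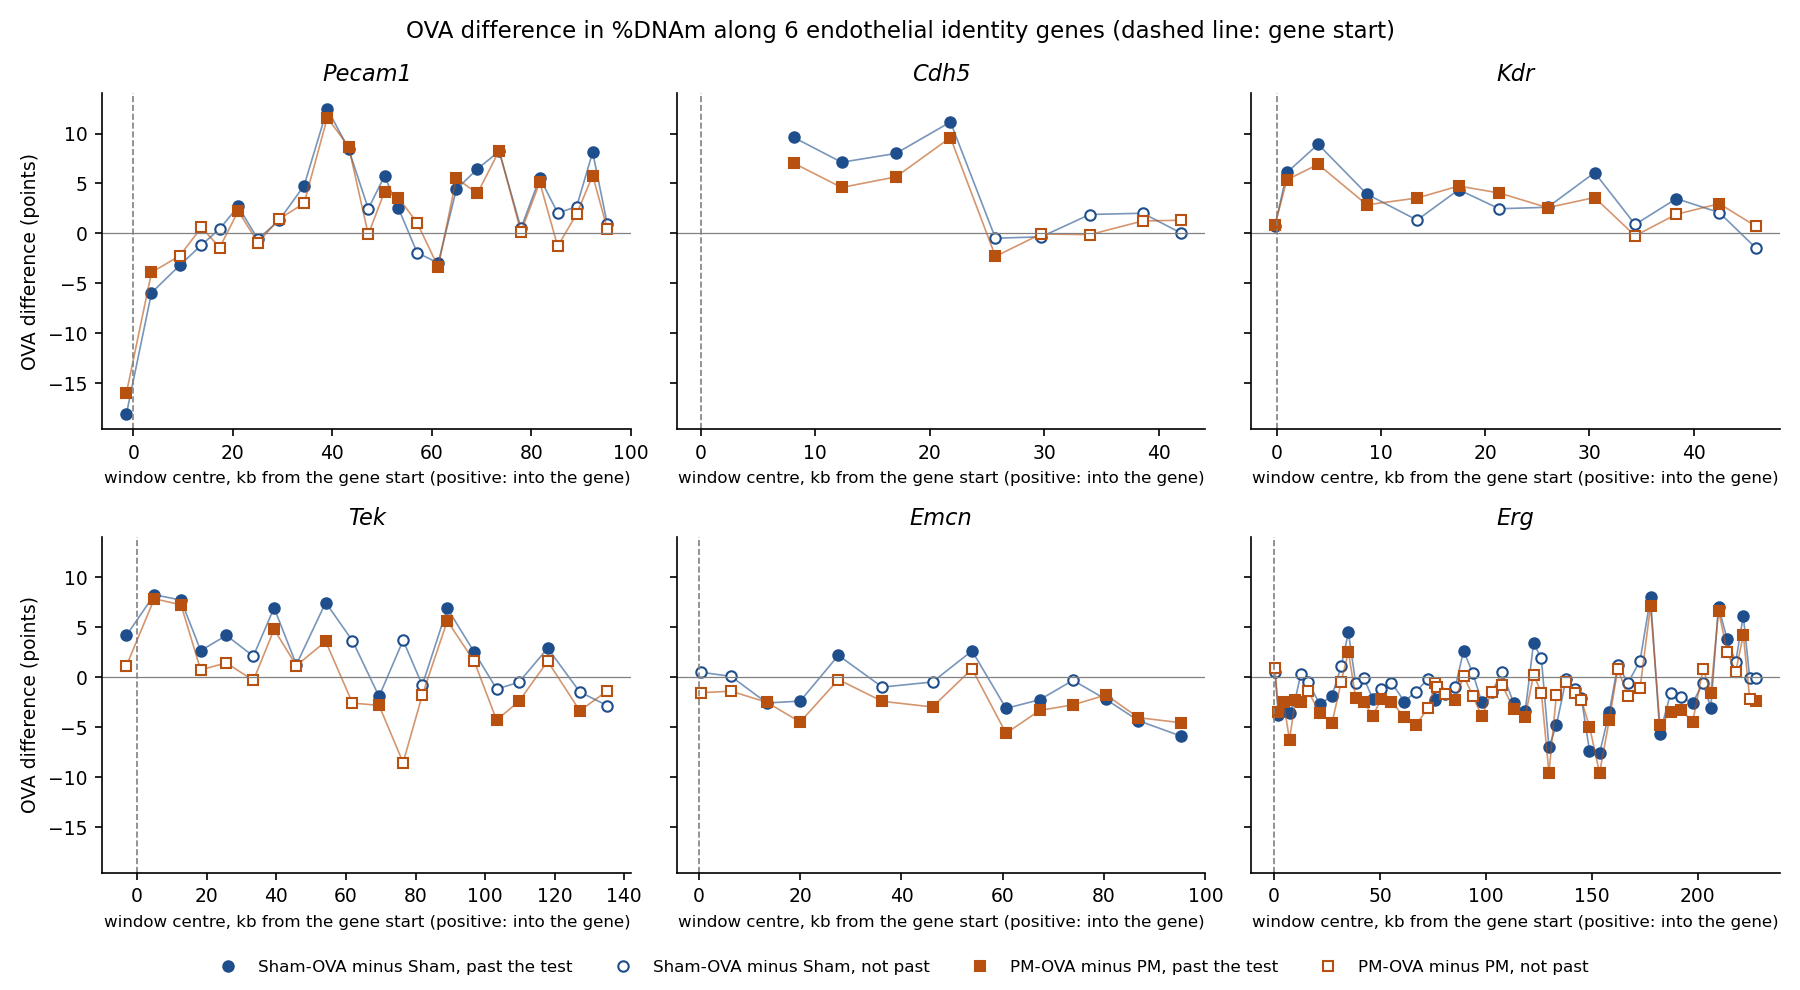
Each panel shows the windows of 1 gene, with the distance of the window centre from the gene start in kb on the x axis and the OVA difference in percentage points on the y axis, blue for Sham and orange for PM. Filled symbols passed the adjusted p and open symbols did not, and the dashed line is the gene start. Pecam1 rises from its first window (-18.0 and -15.9) to a peak 39.0 kb inside the gene (12.5 and 11.6), the first 4 Cdh5 windows are all higher, and most called windows of Emcn and Erg lie below 0.

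Cdh5 encodes VE-cadherin, the cadherin of endothelial adherens junctions. Its first 4 windows of 9 all rose in both arms (44.4%, beside 13.3% of all windows in Sham and 9.26% in PM), and 0 of the other 5 passed in Sham. In PM the exonic window chr8:104125360-104129371 was lower, by a difference of -2.29 percentage points, and with the libraries centred it did not pass. The intronic window chr8:104121514-104125357 ran from 54.05 to 58.8% (median 57.3%) in Sham and from 63.3 to 73.7% (median 68.4%) in Sham-OVA, without overlap, a DMR of 11.1 percentage points (adjusted p = 1.1e-05). In PM it rose by 9.59 (adjusted p = 2.65e-05), which is under the 10-point minimum. The window chr8:104107590-104111924, which holds the start of Cdh5-202, rose from 54.0 ± 2.1% to 63.6 ± 1.9% in Sham (adjusted p = 2.29e-06) and by 7.03 in PM (adjusted p = 5.79e-05). The start of Cdh5-201 itself lies in a window that the table names for Gm29682, an overlapping gene on the other strand, and is therefore no member. There the difference was 2.54 percentage points in Sham (adjusted p = 0.325) and 3.07 in PM (adjusted p = 0.192), while the following window of that name rose by 8.71 (adjusted p = 0.000334) and 7.08 (adjusted p = 0.00139).

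**Figure D4:**
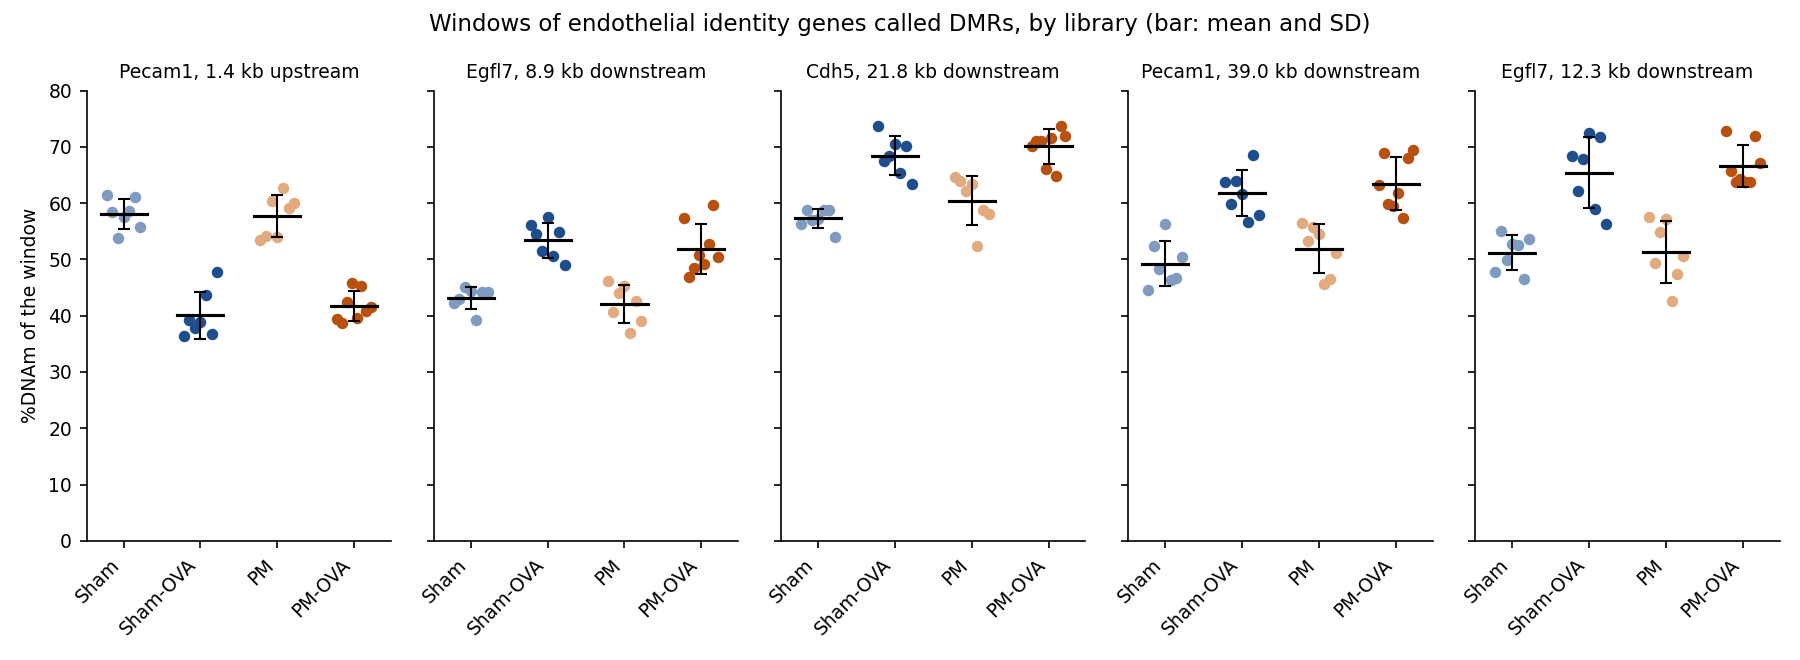
The y axis gives %DNAm in each library for the 5 member windows called DMRs in at least 1 arm, with the 4 groups on the x axis and 1 point per library. The black bars give the mean and SD, and the panel title gives the distance of the window centre from the gene start. In every panel the Sham-OVA points lie apart from the Sham points and the PM-OVA points apart from the PM points, lower at the Pecam1 window upstream of the start (means 40.04 against 58.08% in Sham) and higher at the other 4.

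At the growth factor and angiopoietin receptors more windows rose than fell in both arms. Kdr encodes VEGFR2, the main signalling receptor for VEGF-A. Of its 13 windows 6 rose (46.2%) and 0 fell in Sham, beside 13.3 and 22.3% of all windows, and 10 rose (76.9%) and 0 fell in PM, beside 9.26 and 34.8%. With the libraries centred 9 rose in Sham, beside 18.3% of all windows, and 11 in PM, beside 18.9%. The window that holds its start, the CpG-dense promoter printed above, stayed low, at 1.68 ± 1.05% in Sham and 2.41 ± 0.55% in Sham-OVA (adjusted p = 0.0633, but 0.0428 with the libraries centred), and at 1.34 ± 0.30% and 2.21 ± 0.74% in PM and PM-OVA (adjusted p = 0.048, but 0.0916 when fitted on the percent scale). The groups overlapped in both arms. The next window into the gene (chr5:75976708-75978233) rose from 13.4 ± 2.3% to 19.5 ± 2.7% in Sham (adjusted p = 6.21e-05) and from 13.6 ± 1.5% to 19.0 ± 1.4% in PM (adjusted p = 0.000138). The window after it (chr5:75972256-75976707) ran from 51.1 to 59.2% (median 55.1%) in Sham and from 60.1 to 68.9% (median 63.8%) in Sham-OVA. It rose by 8.93 (adjusted p = 8.17e-06) and 6.92 (adjusted p = 8.68e-05), without overlap in either arm.

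Tek encodes TIE2, the receptor for angiopoietins. In Sham 10 of its 20 windows rose (50%) and 1 fell (5%), and in PM 5 rose (25%) and 4 fell (20%), beside 13.3 and 22.3% of all windows in Sham and 9.26 and 34.8% in PM. With the libraries centred the counts were 11 and 1 in Sham and 10 and 3 in PM. The centred shares over all windows were 18.3% higher and 17.8% lower in Sham and 18.9 and 18.7% in PM. The start window (chr4:94732576-94739836), with the CpG-poor promoter printed above, was 52.0 ± 1.8% in Sham and 56.1 ± 1.9% in Sham-OVA (adjusted p = 0.00348), and 54.1 ± 2.7% in PM and 55.3 ± 1.5% in PM-OVA (adjusted p = 0.389, but 0.0318 with the libraries centred). Inside the first intron the window chr4:94748904-94754862 rose by 7.71 (adjusted p = 0.00012) and 7.24 (adjusted p = 0.000121). Tie1 encodes the orphan receptor that pairs with TIE2. Of its 7 windows 3 rose (42.9%) and 0 fell in Sham, beside 13.3 and 22.3% of all windows. In PM 3 rose (42.9%) and 1 fell (14.3%), beside 9.26 and 34.8%. The median difference over the Tie1 windows was 1.08 percentage points in Sham and -1.01 in PM. Its start window (chr4:118487752-118491693) ran from 41.1 to 49.9% (median 46.9%) in Sham and from 50.5 to 59.9% (median 57.0%) in Sham-OVA, without overlap. The rise was 9.55 percentage points in Sham (adjusted p = 2.31e-05) and 4.73 in PM (adjusted p = 0.0115), where the groups overlapped. The exonic window next to it (chr4:118485653-118487730) rose by 8.62 and 5.83, and the difference between the arms at the start window did not pass (interaction of -4.81, adjusted p = 0.655).

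Cldn5 encodes claudin-5, the tight junction protein of endothelium. Both of its windows are CpG-dense and low. Its start window (chr16:18776689-18777483) ran from 3.44 to 6.50% (median 5.02%) in Sham and from 7.38 to 9.06% (median 8.34%) in Sham-OVA, without overlap. Means were 4.95 ± 1.06% and 8.24 ± 0.66% in Sham (adjusted p = 9.49e-06) and 5.34 ± 0.52% and 8.19 ± 1.43% in PM and PM-OVA (adjusted p = 6.65e-05). The downstream window (chr16:18777484-18778964) rose by 3.52 in Sham (adjusted p = 3.01e-06) and by 1.33 in PM (adjusted p = 0.0176).

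**Figure D5:**
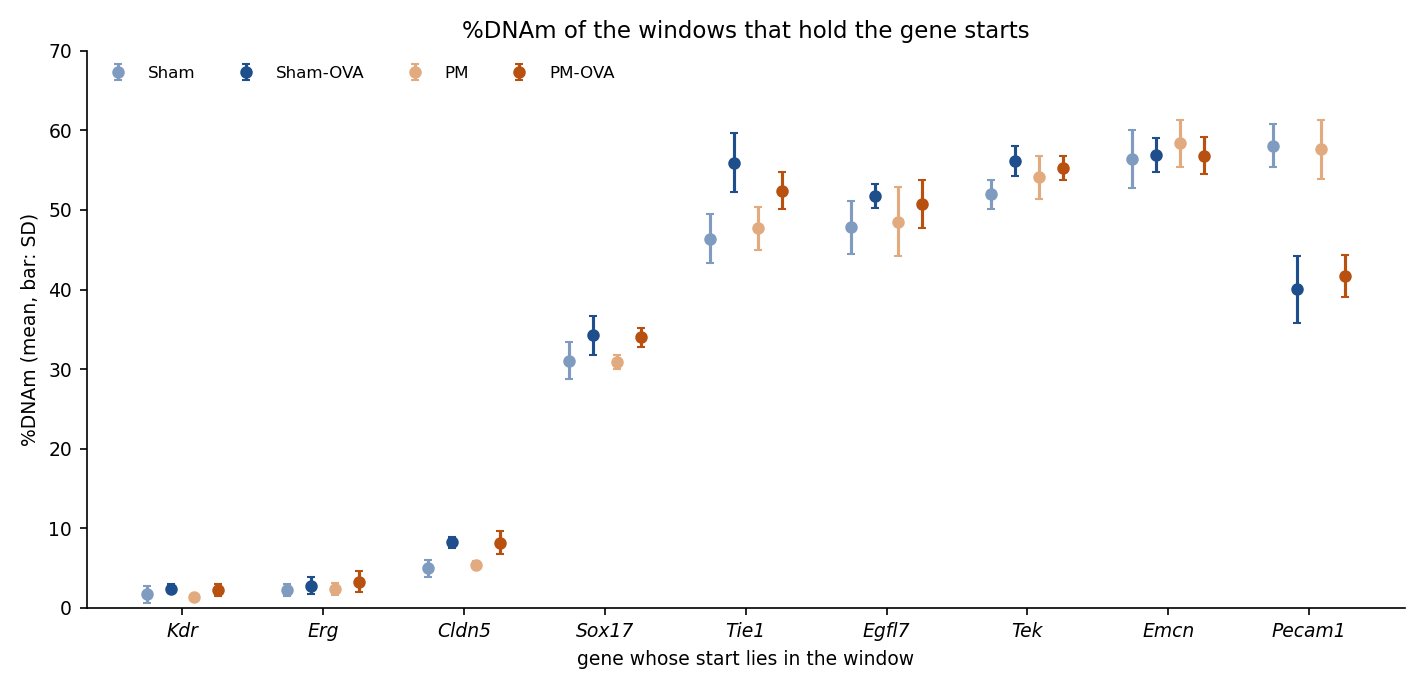
The y axis gives %DNAm as the mean and SD of each group for the windows that hold the outermost annotated start of 9 member genes, in order of the Sham mean. The outermost Cdh5 start lies in a window named for another gene and is not drawn. Kdr, Erg and Cldn5 stay under 10%, Tie1 moves from 46.4 to 55.9% after OVA in Sham, and the Pecam1 window, which also holds the Milr1 start, falls from 58.08 to 40.04%.

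Egfl7 encodes a secreted protein of blood vessel walls, and an intron of it holds miR-126, an endothelium-enriched miRNA that tunes VEGF signalling. The largest rise of the set lay in a window that includes miR-126. The window chr2:26590713-26593966 covers the 3′ part of Egfl7 with Mir126a and Mir126b, and it also touches Agpat2 and Gm20532. It is 3254 bp long, with 2262 bp of Egfl7 exon and 7 of the 19 annotated Egfl7 starts. Its rise therefore cannot be placed at the miRNA. Sham libraries ran from 46.6 to 55.0% (median 52.6%) and Sham-OVA libraries from 56.3 to 72.5% (median 67.8%). In PM the values ran from 42.6 to 57.4% (median 50.5%) and in PM-OVA from 63.7 to 72.8% (median 65.0%). No Sham-OVA or PM-OVA library overlapped its control group. The rise was 14.2 percentage points in Sham (0.85 ± 0.15 SE on the log2 ratio, adjusted p = 5.51e-05) and 15.3 in PM (0.91 ± 0.14 SE, adjusted p = 1.04e-05).
The 3 mature miRNAs that RefSeq places there are printed to show what the window holds, with the seed (bases 2 to 8) in capitals. The first lies at chr2:26591402-26591423 on the plus strand and the other two at chr2:26591363-26591385 and chr2:26591399-26591420 on the minus strand, and no pair of them shares a seed.
mmu-miR-126a-3p: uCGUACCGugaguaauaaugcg
mmu-miR-126b-3p: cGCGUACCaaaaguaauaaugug
mmu-miR-126b-5p: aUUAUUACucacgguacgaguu
The methylation of the window says nothing about the level of these miRNAs, which was not analysed here.

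Methylation along Egfl7 fell into separate levels. The CpG-dense window chr2:26586635-26587110, which holds 3 internal starts, was at 0.362 ± 0.283% in Sham and 0.404 ± 0.215% in Sham-OVA, the lowest of all member windows (adjusted p = 0.748). The neighbouring window chr2:26587118-26590699 was a DMR in Sham, from 43.2 ± 2.0% to 53.4 ± 3.1% (10.2 percentage points, adjusted p = 5.07e-05), and rose by 9.83 in PM (adjusted p = 3.65e-05). Upstream, chr2:26575058-26580368, with the outermost start, had a difference of 3.93 in Sham (adjusted p = 0.0612) and 2.24 in PM (adjusted p = 0.258), and with the libraries centred it passed in both (adjusted p = 0.015 and 0.031). In all, 4 of the 6 windows rose in Sham (66.7%, beside 13.3% of all windows) and 2 in PM (33.3%, beside 9.26%), and 0 fell. With the libraries centred 5 rose in each arm, beside 18.3% of all windows in Sham and 18.9% in PM.

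Among the transcription factors, Sox17 and Erg differed from each other. Sox17 is a SOX-F factor of arterial endothelium. Of its 7 windows 4 rose in Sham (57.1%, beside 13.3% of all windows) and 6 in PM (85.7%, beside 9.26%), and 0 fell. The steps were small in percentage points, and 5 of the windows lie under 10%. The exonic window chr1:4492145-4492625 ran from 0.53 to 1.30% (median 0.70%) in Sham and from 1.81 to 3.56% (median 2.34%) in Sham-OVA, without overlap (adjusted p = 5.97e-06). In PM and PM-OVA the means were 0.75 ± 0.38% and 2.04 ± 0.53% (adjusted p = 1.27e-05). Outside the CpG-dense part, chr1:4497287-4500778, which holds the outermost start, rose from 31.1 ± 2.3% to 34.2 ± 2.5% in Sham (adjusted p = 0.0129) and from 30.9 ± 0.9% to 34.0 ± 1.2% in PM (adjusted p = 0.00966).

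Erg encodes the ETS factor that maintains adult endothelium, and it is also used in blood stem cells. Of its 56 windows 7 rose (12.5%) and 20 fell (35.7%) in Sham, beside 13.3 and 22.3% of all windows, and 4 rose (7.14%) and 28 fell (50%) in PM, beside 9.26 and 34.8%. With the libraries centred 8 rose and 18 fell in Sham and 5 rose and 20 fell in PM, beside 18.3 and 17.8% and 18.9 and 18.7% of all windows. The start window (chr16:95585527-95586697) was at 2.24 ± 0.70% in Sham and 2.80 ± 1.11% in Sham-OVA (adjusted p = 0.397), and 2.38 ± 0.76% and 3.28 ± 1.33% in PM and PM-OVA (adjusted p = 0.16). Deep inside the gene, downstream of a cluster of 4 internal transcript starts, lies a stretch of lower methylation. In it chr16:95455222-95458507 fell from 36.8 ± 3.8% to 29.8 ± 3.3% in Sham (adjusted p = 0.000328) and from 38.6 ± 1.8% to 29.02 ± 1.59% in PM (adjusted p = 3.54e-06). Just beyond that stretch, chr16:95430314-95435641 ran from 70.1 to 73.9% (median 72.2%) in Sham and from 60.8 to 68.5% (median 65.0%) in Sham-OVA, and from 71.3 to 74.1% (median 73.0%) in PM and from 59.2 to 65.6% (median 63.3%) in PM-OVA. It fell by 7.61 percentage points in Sham (-0.49 ± 0.07 SE on the log2 ratio, adjusted p = 2.55e-06), and the value for PM was -9.58 (adjusted p = 3.61e-08), without overlap in either arm. Closer to the 3′ end, chr16:95407102-95410790 went the other way, from 61.3 ± 3.0% to 69.2 ± 1.8% in Sham (adjusted p = 1.07e-05) and by 7.10 in PM (adjusted p = 2.25e-05).

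Emcn encodes endomucin, a sialomucin of capillary and venous endothelium. Of its 14 windows 2 rose (14.3%) and 7 fell (50%) in Sham, beside 13.3 and 22.3% of all windows, and 0 rose and 10 fell (71.4%) in PM, beside 9.26 and 34.8%. With the libraries centred 2 rose and 7 fell in Sham and 0 rose and 6 fell in PM. The centred shares over all windows were 18.3% higher and 17.8% lower in Sham and 18.9 and 18.7% in PM. The last window (chr3:137431936-137440756) ran from 85.9 to 90.9% (median 88.5%) in Sham and from 80.9 to 84.2% (median 82.7%) in Sham-OVA, without overlap. It fell by 5.91 percentage points in Sham (adjusted p = 5.61e-07) and fell by 4.57 in PM (adjusted p = 2.7e-05). Only 250 of its 8821 bp lie within Emcn, and the rest lie beyond the 3′ end of the gene. The start window, with the CpG-poor promoter printed above, had a value of 56.4 ± 3.7% in Sham, 56.9 ± 2.1% in Sham-OVA, 58.4 ± 3.0% in PM and 56.8 ± 2.3% in PM-OVA (adjusted p = 0.824 and 0.382).

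To ask whether maternal PM altered these windows, PM was compared with Sham, PM-OVA with Sham-OVA, and the OVA difference in PM with that in Sham (the interaction). In each of these comparisons limma called 0 member windows and 0% of all windows past the adjusted p. At an unadjusted p under 0.05 the members gave 11 windows for PM without OVA (6.92%, against 5.79% of all windows), 11 for PM with OVA (6.92%, against 5.96%) and 18 for the interaction (11.3%, against 7.4%). Median differences over the members were 0.56, -0.45 and -1.13 percentage points. The smallest p of limma's test without OVA was at the last Emcn window, most of which lies beyond the gene (-2.13 percentage points, adjusted p = 0.805). With OVA it was at the downstream Cldn5 window, 10.9 ± 1.3% in Sham-OVA and 9.22 ± 0.92% in PM-OVA (adjusted p = 0.814). For the interaction it was at the intronic Erg window chr16:95556979-95561391, which differed by -1.85 after OVA in Sham and -4.56 in PM (interaction of -2.72, adjusted p = 0.554). These comparisons share libraries with each other and with the OVA comparisons, since the interaction uses all 29.

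Other endothelial genes gave a frame for these counts, from 4 lists of 46 genes found in the table with 514 windows. In Sham 201 of them rose (39.1%) and 75 fell (14.6%) past the adjusted p, beside 13.3 and 22.3% of all windows, and 21 were DMRs upwards and 3 downwards. In PM 160 rose (31.1%) and 126 fell (24.5%), beside 9.26 and 34.8%, with 8 and 2 DMRs. The share that rose was thus at least as large as the 33.3 and 28.9% of the endothelial identity genes. Among further transcription factors, which had 106 windows, 43 rose and 18 fell in Sham and 41 rose and 21 fell in PM. Receptors and ligands (163 windows) gave 69 and 18 in Sham and 49 and 32 in PM, and adhesion and surface genes (125 windows) gave 50 and 14, and 39 and 33. Genes of lung capillary, arterial, venous and lymphatic endothelium (120 windows) gave 39 and 25 in Sham and 31 and 40 in PM, and the balance in PM turned to 44 higher and 23 lower with the libraries centred. Centring also moved the PM counts of the other lists, to 53 higher and 17 lower for transcription factors, 77 and 20 for receptors and ligands and 57 and 20 for adhesion and surface genes, and to 231 and 80 over all 514 windows (221 and 64 in Sham). The centred shares over all windows were 18.9% higher and 18.7% lower in PM and 18.3 and 17.8% in Sham.

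The largest rise and the largest fall in these lists were at ETS family genes. A window of Ets2, an ETS factor expressed in many cell types, rose by 20.004 percentage points in Sham and 15.68 in PM (40.7 to 60.7% and 42.6 to 58.3%). Windows of Gata2, a zinc finger factor of endothelium and blood stem cells, and of Ets1, an ETS factor of endothelium and lymphocytes, rose by 14.9 and 10.8 and by 13.1 and 11.3. Fli1, the close relative of Erg used in endothelium and megakaryocytes, fell by 14.0 percentage points in Sham (74.2 to 60.2%) and changed by -15.1 in PM. Nr2f2, the venous identity factor, fell by 11.4 and changed by -10.4 in PM, and Vwf, von Willebrand factor, fell by 7.40 and changed by -7.20. All 6 passed the adjusted p in both arms.

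Markers of other lung cells moved in the same libraries. Over 15 leucocyte markers with 86 windows, 24 rose (27.9%) and 32 fell (37.2%) in Sham, beside 13.3 and 22.3% of all windows, with 1 DMR upwards and 12 downwards. In PM 21 rose (24.4%) and 36 fell (41.9%), beside 9.26 and 34.8%, with 1 and 12 DMRs. Centred, the leucocyte counts were 30 and 32 in Sham and 31 and 33 in PM. The centred shares over all windows were 18.3% higher and 17.8% lower in Sham and 18.9 and 18.7% in PM. The mean of the leucocyte list ran from 68.0 to 69.4% over the Sham libraries and from 65.8 to 67.2% in Sham-OVA, and from 68.5 to 69.6% in PM and from 66.1 to 66.8% in PM-OVA, without overlap in either arm. Over 10 epithelial markers with 66 windows, 24 rose (36.4%) and 4 fell (6.06%) in Sham and 16 rose (24.2%) and 7 fell (10.6%) in PM. With the libraries centred the counts were 35 and 4 in Sham and 30 and 2 in PM. The list had a mean of 53.8 to 55.5% in Sham, 55.2 to 56.8% in Sham-OVA, 54.5 to 55.6% in PM and 54.7 to 56.3% in PM-OVA. The 9 mesenchymal markers with 83 windows gave 16 higher (19.3%) and 24 lower (28.9%) in Sham and 10 (12%) and 33 (39.8%) in PM, beside 13.3 and 22.3% and 9.26 and 34.8% of all windows, with 20 and 20 in Sham and 19 and 21 in PM when centred, and a list mean of 66.6 to 67.9%, 66.2 to 67.9%, 66.8 to 68.9% and 65.95 to 67.31% in the same order. For the endothelial identity genes themselves the mean over the 159 windows ran from 65.6 to 67.6% in Sham, 66.6 to 68.8% in Sham-OVA, 65.5 to 68.4% in PM and 66.5 to 68.4% in PM-OVA. The part that a change in the mix of cells played in any of these windows was not tested.

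The windows of other genes whose course over the 29 libraries was most like that of the Pecam1 window at the Milr1 start, measured as the mean absolute difference after subtracting the Sham mean of each, belonged to Vmp1 (1.96 percentage points), Rps6ka1 (2.00) and Dock8 (2.02). For the Egfl7 window with miR-126, a comparison added after its values were seen, they were those of Tnks1bp1 (2.07), Runx1 (2.19) and Rnf220 (2.34).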

How the data were processed

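The authors prepared enzymatic methyl-seq libraries with a lambda DNA spike, used Trim Galore for trimming and the DRAGEN methylation pipeline for mapping (GRCm38) and calling, and then averaged calls in SeqMonk over windows of a fixed number of CpGs, naming 1 Ensembl gene per window. The deposited values are a percent per window and library, with no read counts and no normalisation between libraries described in the sources used here. The study's own test models counts with library size and could not be run.

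Windows with at least 3 values in every group were kept (259167 of 260686). Each percentage p was taken to log2((p + 1)/(100 - p + 1)), so 1 percentage point was the pseudocount, and the 4 groups were fitted over all 29 libraries with the moderated variance of limma (version 3.58.1, R 4.3.3, with tables read by data.table, version 1.17.8). Tests were 2-sided, with Benjamini-Hochberg adjustment over all windows tested. A DMR needed an adjusted p under 0.05 and at least 10 percentage points. The code was tested on simulated data. Annotation came from GENCODE M21 and RefSeq GRCm38.p6, read with Python 3.11.15 and pyfaidx 0.9.0.4, and plots were drawn with matplotlib 3.10.9. Promoter motifs were counted in 32851 RefSeq promoters.

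Libraries were grouped by their titles and labels. No pair of libraries was identical (Pearson's r between 0.983 and 0.997). Named windows were every member DMR, each gene's start window (or the nearest) and its window with the smallest mean p over both OVA contrasts, the smallest p of each maternal contrast, 3 rises and 3 falls among other endothelial genes, and 3 windows most like the member with the largest OVA difference. Other windows with values were chosen after these were seen. The members and lists were chosen with earlier results of these data known. Angpt2, Lcp2 and Tcf21, listed as markers, named no window and were not analysed here. Alternatives changed the pseudocount, the scale, centring, missing values, thresholds, samples and the block, and left out each library in turn.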

Additional observations from a re-analysis of the deposited data

Results flagged for a closer look

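Dixon's test at the 95% level was applied to the 88 groups of values behind the 22 named windows, and 6 libraries stood apart from their group, where chance alone gives about 1 in 20 groups. These were 6 different libraries.

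Sham-OVA replicate 1 had 3.56% at the Sox17 window chr1:4492145-4492625, where the other libraries of its group had 1.81 to 2.54%. PM-OVA replicate 8 had 36.5% at the Sox17 window chr1:4497287-4500778 against 32.7 to 34.5%. The Emcn start window was at 52.4% in Sham-OVA replicate 5 against 56.6 to 58.9% in the rest of the group. The Tek window chr4:94748904-94754862 was at 67.5% in Sham replicate 4 against 57.5 to 61.8%. Sham-OVA replicate 4 had 77.7% at the Tie1 window chr4:118485653-118487730, where the others had 69.2 to 72.1%. PM-OVA replicate 3 had 62.8% at the Kdr window chr5:75972256-75976707 against 64.4 to 65.8%. Each of the OVA calls at these windows was the same without the library set apart. The OVA difference did not differ between the maternal arms at any member window past the adjusted p.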

How the results depend on the processing

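The adjusted p of 1e-06 used in the study left 1 member DMR in each arm and 2 windows (Sham) and 4 windows (PM) past the p, and a minimum difference of 5 percentage points in place of 10 gave 34 DMRs in Sham and 24 in PM. The shares of all windows at these thresholds are not given here, so these counts do not set the members apart from the background. Centring the libraries gave 5 DMRs in PM in place of 3. Leaving out each library in turn gave 4 to 6 DMRs in Sham and 3 to 5 in PM, 79 to 88 windows past the p in Sham and 87 to 94 in PM, and 0 in the maternal comparisons and the interaction. The 5 DMRs in PM arose without PM replicate 1 and without PM replicate 4. The replicate numbers of the titles showed no pairing of the libraries, since correlations of same-numbered libraries ran from -0.041 to 0.104 and 1 of 42 was over 0.1. Some library names carry other numbers than the titles, and a pairing by library name was not tested. With the replicate number as a block the counts were 5 and 3 DMRs, 87 and 88 windows past the p, and 0 in the maternal comparisons. Other scales, pseudocounts, missing-value filters and samples in the fit moved no count by over 1.5 times. For the named windows, the Kdr start window in PM did not pass on the percent scale (adjusted p = 0.0916), with a pseudocount of 0.1 (adjusted p = 0.0671) or with the block (adjusted p = 0.08), and 14 fits that left out a library lost it. In Sham the same window passed in 4 such fits (without Sham replicate 4, 5 or 6 or Sham-OVA replicate 3, lowest adjusted p = 0.0191), and the outermost Egfl7 window passed in 4 (without Sham replicate 4 or 6 or PM replicate 1 or 5, lowest adjusted p = 0.0168) and with the block (adjusted p = 0.0351). Centring brought the outermost Egfl7 window past the threshold in both arms (adjusted p = 0.015 and 0.031) and the Tek start window in PM (adjusted p = 0.0318) and the Kdr start window in Sham (adjusted p = 0.0428). The cause was not tested. No call at a named window was reversed. Centring did turn the median difference over the members in PM from -0.24 to 0.74 percentage points.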
